A study of Rattus norvegicus with 18 samples.

Results

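Axon guidance ligands and receptors were followed through 18 medullary thyroid carcinomas of rats, which arise from C cells, the source of calcitonin. The 56 genes were taken by symbol from 14506 measured genes: semaphorins of classes 3 to 7, plexins A to D, both neuropilins, Slits, Robos, netrins, Dcc and the Unc5 genes, ephrins and Eph receptors. The symbol rule itself used no expression value, but the guidance genes were chosen with earlier results of these data known. Unc50 and Unc5cl match only by name, since neither is a netrin receptor, which left 54 genes of the pathway. A further 15 rat genes in RefSeq match the same names and were not analysed here: Efna3, Epha4, Epha6, Ephb4, Ntn4, Plxna1, Plxna4, Plxnb1, Plxnc1, Sema3g, Sema4b, Sema4d, Sema6a, Slit2 and Unc5d.

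The tumours came from MENX rats, in which Cdkn1b is mutated; its product p27Kip1 restrains the cell cycle. Homozygous mutants gave 6 tumours at 9 months, and heterozygous mutants gave 6 at 18 months and another 6 at 9 months. All animals were untreated, had the strain background Sprague–Dawley white eye/Wistar–Kyoto and carried the mutation, so no group stands for wild-type rats or normal thyroid. Each array had its own animal code, and the labels give neither sex nor litter. RNA was measured on Affymetrix arrays as log2 intensity, and 1 unit is a doubling. Such levels compare a gene between tumours and do not rank genes against each other.

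Growing axons are steered by secreted and membrane-bound ligands read by receptors on the growth cone. Semaphorins signal through plexins, with neuropilins as coreceptors for most of class 3. Netrins act through Dcc and Unc5 receptors, Slits through Robo receptors, and ephrins through Eph receptor tyrosine kinases, where ligand and receptor usually sit on touching cells. Several of these molecules also pattern blood vessels and epithelia, and C cells are endocrine cells with many neuronal traits.

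The tissue label was checked first. The calcitonin gene Calca had 13.76 to 14.02 in homozygous tumours at 9 months, 14.01 to 14.12 in heterozygous tumours at 18 months and 13.75 to 13.92 in heterozygous tumours at 9 months. Thyroglobulin (Tg), a product of follicular cells and not of C cells, was also bright, with 14.18 to 14.34 in homozygous tumours, 11.08 to 14.34 in heterozygous tumours at 18 months and 14.30 to 14.37 in heterozygous tumours at 9 months. RNA of follicular thyroid was thus measured beside that of the carcinomas. The mutated gene Cdkn1b had 10.96 to 11.25 in homozygous tumours and 10.67 to 10.90 in heterozygous tumours at 9 months, a difference of 0.30 (SE 0.07, adjusted p = 0.266), and 10.65 to 11.10 in heterozygous tumours at 18 months. Its level was not used as a check of the genotype labels, since the labels do not say where the mutation lies.

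Some tumours stood apart from their group. The first principal component of the 11370 genes tested, with 63.9% of the variance, placed 18-month tumours 1, 2, 3 and 6 between 35.8 and 69.9. Tumours 4 and 5 of that group lay at -11.7 and 4.21, near the 9-month tumours, and homozygous tumour 3 lay at 24.0, towards the 18-month ones. The mean level of follicular cell markers followed the same split, at 10.92 and 10.63 in 18-month tumours 4 and 5 against 7.28 to 9.43 in the other 4. Results on age are therefore also given without tumours 4 and 5, an alternative chosen after seeing the data. Since these tumours were picked for lying near the 9-month ones, leaving them out tends to enlarge differences from the 9-month tumours. Calls gained that way are not separate evidence.

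The first comparison set heterozygous tumours at 18 months against heterozygous tumours at 9 months. Guidance genes moved in both directions: 11 rose and 17 fell at 18 months, and 20 of the 48 bright enough to test (a mean of at least 6.32) did not pass (limma, Benjamini-Hochberg adjusted p under 0.05 over all genes tested). Changes were common among all genes, of which 44.1% were called, 21.6% higher and 22.4% lower, against 58.3% of the guidance genes. The median difference of the 48 genes was -0.11, against -0.0045 over all genes, and the median size of a difference was 0.44, against 0.20. In 12 of the 48 genes the groups did not overlap, 6 above and 6 below, where 18.1% of all genes did so, 9.07% above and 9.0% below. Ligands and receptors both split: 5 of 26 ligands rose and 10 fell, and 6 of 21 receptors rose and 7 fell. Without 18-month tumours 4 and 5 the numbers were 13 higher and 21 lower, while the genes called among all 11370 went from 5009 to 6131. Without 18-month tumour 1 or 2 the number of falls was 11, with 4327 and 4290 of all genes called.

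**Figure D1:**
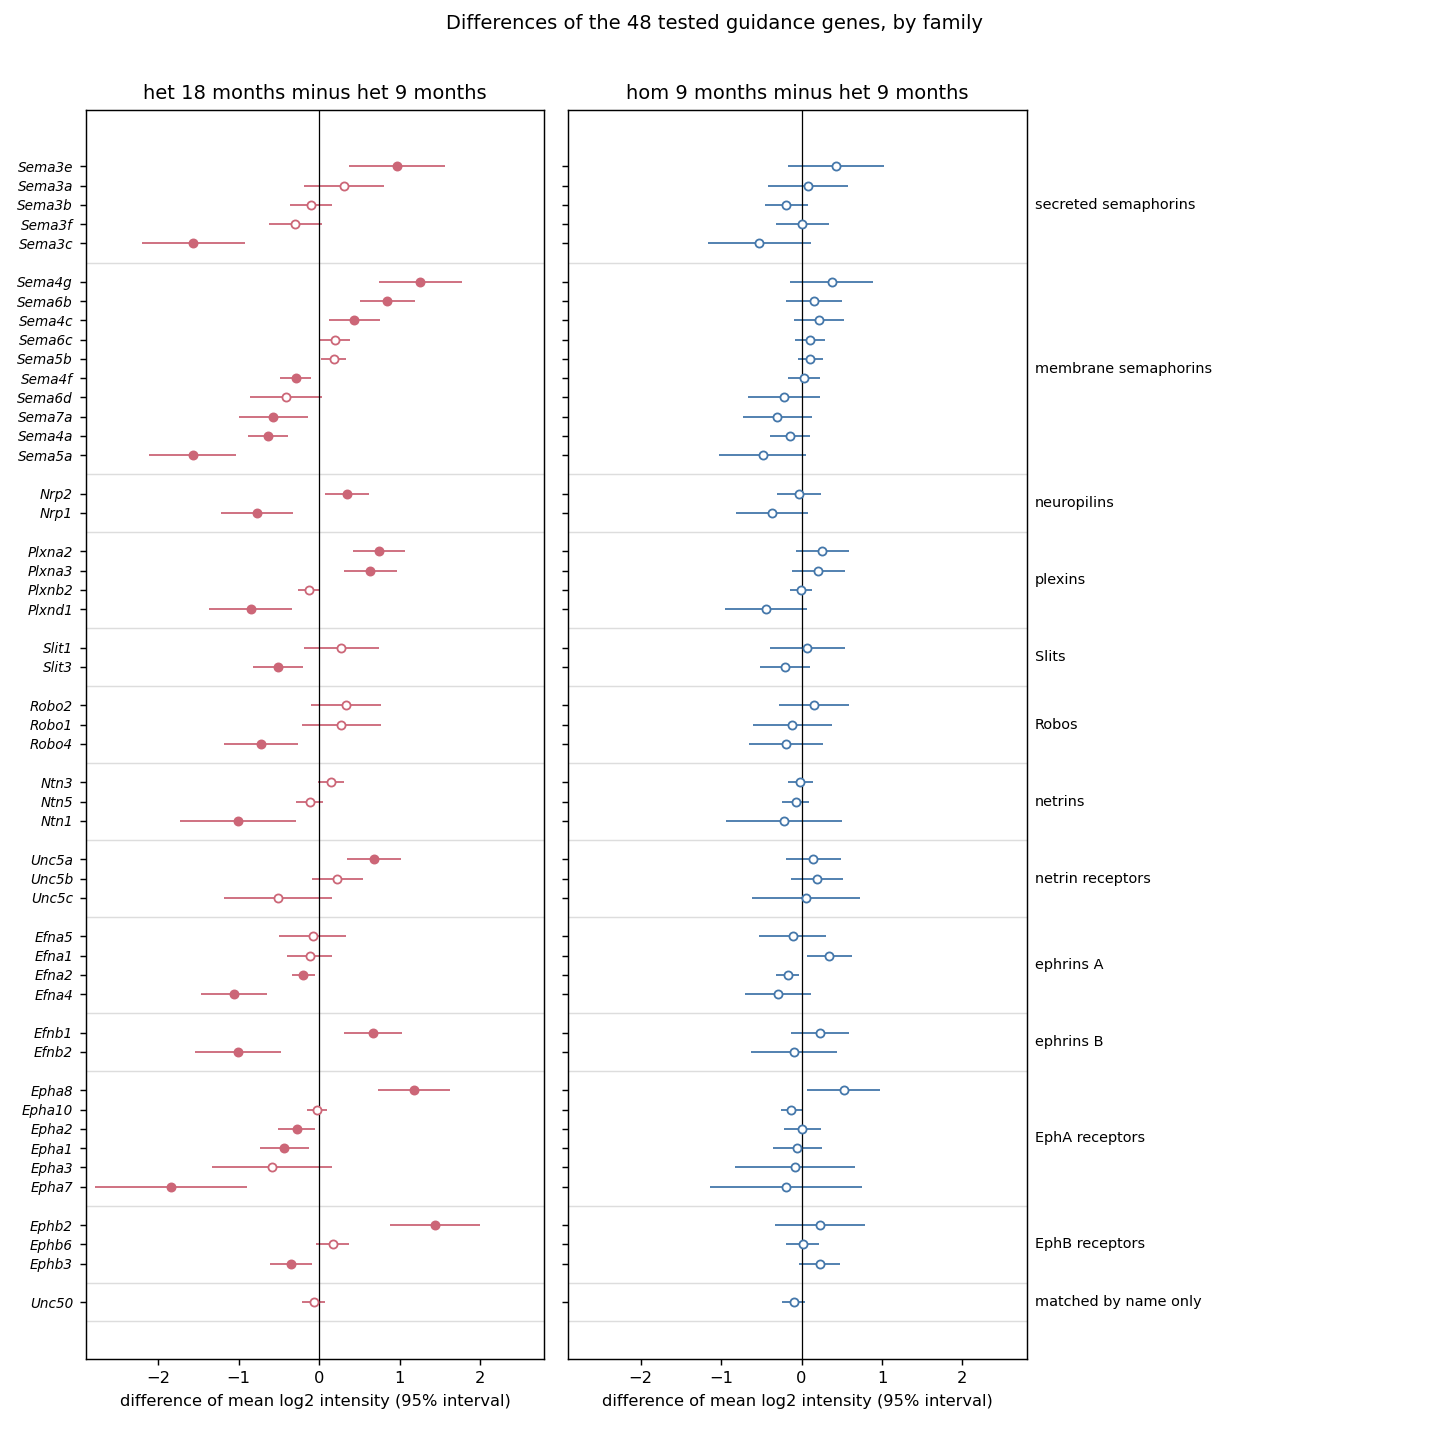
Difference of mean log2 intensity with its 95% interval for the 48 tested genes, grouped by family, for heterozygous tumours at 18 months minus heterozygous tumours at 9 months (left) and for homozygous minus heterozygous tumours at 9 months (right). Filled points passed the test; 28 did so on the left, from -1.84 for Epha7 to 1.44 for Ephb2, and 0 on the right.

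Markers of several cell types changed with age as well, where 44.1% of all genes were called, 21.6% higher and 22.4% lower. Of 18 endothelial marker genes 17 fell, of 10 follicular cell markers 9 fell, and of 15 C cell markers 11 rose and 2 fell. Fibroblast markers gave 1 rise and 7 falls of 12, macrophage markers 3 and 1 of 9, smooth muscle and pericyte markers 1 and 1 of 10, parathyroid markers 1 and 1 of 3, skeletal muscle markers 0 and 1 of 9, and Schwann cell and nerve markers 0 and 2 of 8. Median differences were -2.58 for parathyroid, -1.90 for follicular, -1.78 for skeletal muscle, -0.95 for endothelial and 1.18 for C cell markers, so few calls did not mean small shifts. Skeletal muscle means were 6.69 to 10.53 at 18 months and 9.29 to 11.32 at 9 months. Parathyroid means were 8.53 to 12.87 and 9.87 to 12.81. The part of these shifts in the guidance results was not tested, and in bulk RNA fewer cells of a type and less RNA per cell cannot be told apart. The mean level of C cell markers was 11.22 to 12.11 at 18 months, lowest in tumours 4 and 5 (11.22 and 11.60), and 10.62 to 11.15 at 9 months. In homozygous tumour 3 it was 12.04, against 11.10 to 11.33 in the other homozygous tumours. That of follicular markers was 7.28 to 10.92 at 18 months and 11.04 to 11.14 at 9 months. That of endothelial markers, which include the guidance gene Robo4, was 7.86 to 9.54 at 18 months and 9.50 to 9.75 at 9 months.

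**Figure D2:**
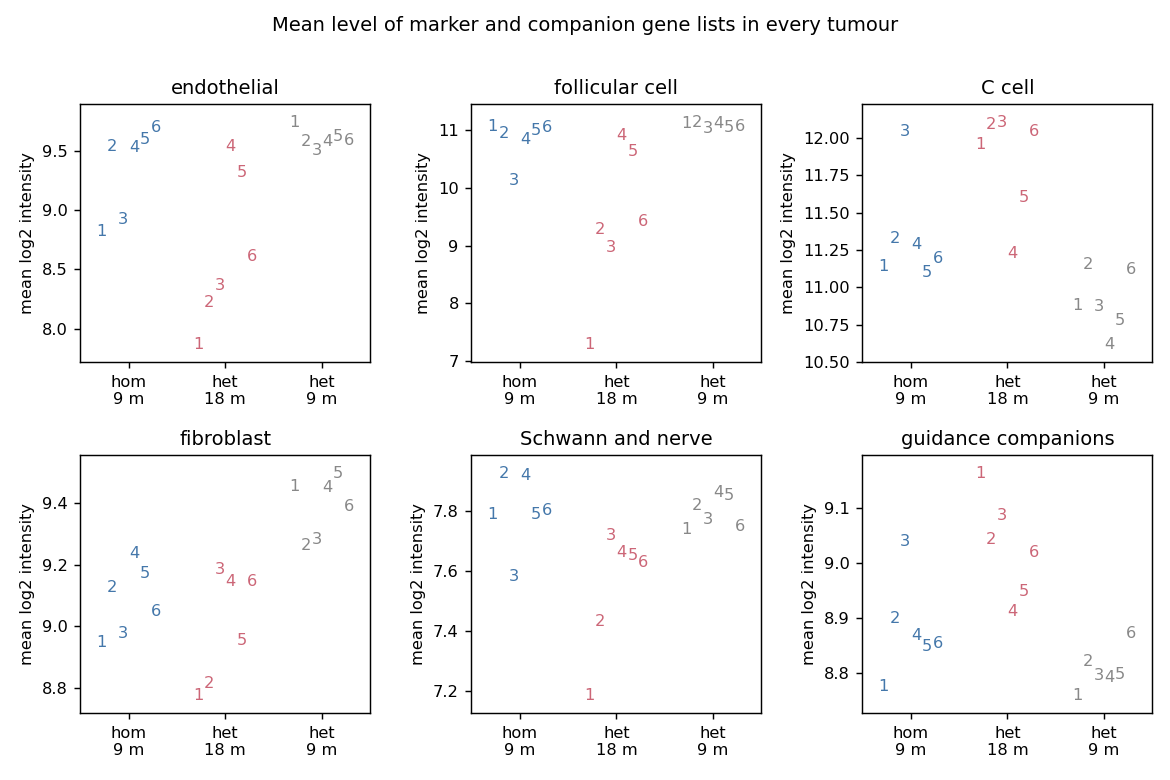
Mean log2 intensity of the genes of 5 marker lists and of the other guidance pathway genes (guidance companions), by group, with a digit for each tumour at its replicate number; panels have their own vertical range. Endothelial means reached down to 7.86 in heterozygous tumours at 18 months, against a lowest value of 9.50 in heterozygous tumours at 9 months.

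Among the secreted semaphorins, 1 of the 5 tested genes rose, Sema3e, and 1 fell, Sema3c. In what follows, 3 values in a row are the lowest, the median and the highest of the 6 tumours of a group, in log2 intensity, and tumours at 18 and 9 months are those of heterozygous rats. Sema3c, known in mice for its part in forming the outflow tract of the heart, had 6.57, 8.30 and 8.88 at 18 months and 9.49, 9.61 and 9.84 at 9 months. Every 18-month tumour was below every 9-month tumour, with a difference of -1.56 (SE 0.30, adjusted p = 0.00104), or 2.96-fold lower. Sema3e, which binds Plxnd1 without a neuropilin and guides vessels in mice, had 8.12, 9.45 and 10.05 at 18 months and 7.79, 8.40 and 8.53 at 9 months. Here 5 of 6 tumours at 18 months were above every 9-month tumour and tumour 1 lay among them, with a difference of 0.97 (SE 0.28, adjusted p = 0.0111). Sema3a, the classical repellent of sensory axons, differed by 0.31 (SE 0.23, adjusted p = 0.302), Sema3b by -0.10 (SE 0.13, adjusted p = 0.551) and Sema3f, a ligand of Nrp2, by -0.30 (SE 0.16, adjusted p = 0.135). None of these 3 passed, although Sema3f stood at -0.53 (adjusted p = 0.00215) without tumours 4 and 5, whereas Sema3d was too dim to test at 5.78 to 6.39 over all tumours.

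Sema3c and Sema3e both lie on rat chromosome 4, with 4 protein-coding genes between them, and went opposite ways. In RefSeq Sema3c ends at 18702453 and Sema3e starts at 21252686, and Sema3a, which did not pass, starts at 22239418. Promoter windows of Sema3e and Sema3c run from 250 bases before to 50 after a start in RefSeq (GRCr8). Both are on the minus strand, read 5′ to 3′, and are shown because they differ in base composition too. They lie at chr4:21510325-21510624 for Sema3e and chr4:18699578-18699877 for Sema3c, and capitals mark GC boxes (GGGCGG or CCGCCC) and CCAAT boxes (CCAAT or ATTGG).
Sema3e: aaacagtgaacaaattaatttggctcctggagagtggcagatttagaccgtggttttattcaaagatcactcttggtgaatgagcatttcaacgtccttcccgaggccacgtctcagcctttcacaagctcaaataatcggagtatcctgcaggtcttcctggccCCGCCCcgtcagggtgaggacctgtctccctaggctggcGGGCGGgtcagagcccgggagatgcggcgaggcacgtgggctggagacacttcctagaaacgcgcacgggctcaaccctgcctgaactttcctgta
Sema3c: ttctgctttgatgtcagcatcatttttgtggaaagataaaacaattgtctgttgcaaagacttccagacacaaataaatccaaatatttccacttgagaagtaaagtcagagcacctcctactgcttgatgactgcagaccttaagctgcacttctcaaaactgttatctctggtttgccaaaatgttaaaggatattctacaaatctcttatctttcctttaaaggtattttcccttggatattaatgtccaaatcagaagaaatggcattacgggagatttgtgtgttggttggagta
The Sema3e window was 55.3% G and C, with 16 CpG, 2 GC boxes and no CCAAT box. The Sema3c window was 36.3% G and C, with 1 CpG and neither motif. It lies wholly within the gene, which RefSeq places at chr4:18538452-18702453. The Sema3e window instead spans the end of its gene, at 21510449. The windows are thus not placed alike, and the Sema3c values hold for that window alone. Neither composition nor motif was tested as a cause of the expression difference.

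Of the 10 membrane semaphorins, all tested, 3 rose, 4 fell and 3 did not pass. Sema4g, a class 4 ligand of Plxnb2 in the mouse brain, had 7.96, 8.77 and 9.79 at 18 months and 7.45, 7.59 and 7.86 at 9 months. All 6 tumours at 18 months were above every 9-month tumour, with a difference of 1.26 (SE 0.25, adjusted p = 0.00107). Sema6b, a transmembrane ligand of A-type plexins, had 9.27, 9.70 and 10.25 at 18 months and 8.70, 8.94 and 9.04 at 9 months. The groups were again apart, with a difference of 0.85 (SE 0.16, adjusted p = 0.00101). Sema4c, another ligand of Plxnb2, had 8.80, 9.18 and 9.98 at 18 months and 8.64, 8.86 and 9.09 at 9 months and rose by 0.44 (SE 0.15, adjusted p = 0.0234). Its call was lost without 9-month tumour 4 or 5 (0.40 each, adjusted p from 0.0521 to 0.0526), and its second probe set differed by 0.10. With the mean of both probe sets Sema4c differed by 0.27 (adjusted p = 0.0479).

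The falls in this family were led by Sema5a, which carries thrombospondin repeats beside its semaphorin domain. It had 8.06, 8.80 and 9.87 at 18 months and 10.16, 10.47 and 10.65 at 9 months. No tumours of the groups overlapped, and the difference of -1.57 (SE 0.26, adjusted p = 0.00046) had the smallest adjusted p of all guidance genes. Sema4a, known as a costimulator of T cells, had 7.79, 8.18 and 8.48 at 18 months and 8.65, 8.81 and 8.91 at 9 months. It was likewise lower in each 18-month tumour, with a difference of -0.64 (SE 0.12, adjusted p = 0.000796). Sema7a, held on the membrane by a lipid anchor, had 9.13, 9.49 and 10.52 at 18 months and 9.98, 10.21 and 10.49 at 9 months and differed by -0.57 (SE 0.20, adjusted p = 0.0301). Tumour 4 of the 18-month group, at 10.52, was above all 9-month tumours. The call was lost without any one of 6 tumours, 1, 3 and 4 of 9 months and 1, 2 and 3 of 18 months (-0.56 to -0.46, adjusted p up to 0.0763), and without 18-month tumours 4 and 5 the difference was -0.88 (adjusted p = 0.000121). Sema4f showed a smaller fall, at -0.29 (SE 0.09, adjusted p = 0.0176), whereas Sema5b, Sema6c and Sema6d differed by 0.18, 0.20 and -0.41 with adjusted p of 0.0524, 0.081 and 0.128.

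Plexins and neuropilins are the receptors of these ligands. Of 4 tested plexins 2 rose and 1 fell, and of the 2 neuropilins 1 rose and 1 fell. Plxna2, a receptor of class 6 and, with neuropilins, class 3 semaphorins, had 9.70, 9.98 and 10.37 at 18 months and 9.14, 9.25 and 9.41 at 9 months. Plxna3, a partner of Nrp2 in mice, had 9.03, 9.43 and 9.79 at 18 months and 8.59, 8.78 and 8.92 at 9 months. Both A plexins were higher in all 6 tumours at 18 months than in any at 9 months, Plxna2 by 0.75 (SE 0.15, adjusted p = 0.00142) and Plxna3 by 0.64 (SE 0.15, adjusted p = 0.00368). Plxnd1, the receptor of Sema3e and known for its expression in vessels, had 8.09, 8.41 and 9.52 at 18 months and 9.29, 9.47 and 9.69 at 9 months. It fell by 0.85 on the log2 scale (SE 0.24, adjusted p = 0.00981), and the 1 overlapping tumour at 18 months was tumour 4. Plxnb2, a receptor of class 4 semaphorins, did not pass, at 10.85 to 11.19 at 18 months and 11.02 to 11.20 at 9 months with a difference of -0.13 (SE 0.07, adjusted p = 0.135). Plxnb3 was too dim to test.

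Nrp1, a coreceptor of class 3 semaphorins and of VEGF, had 9.17, 9.59 and 10.39 at 18 months and 10.18, 10.41 and 10.78 at 9 months. It was lower in 5 of 6 tumours at 18 months than in any at 9 months, with tumour 4 the exception and a difference of -0.77 (SE 0.21, adjusted p = 0.0082). Nrp2, known for its role in lymphatic vessels and as the receptor of Sema3f, had 9.66, 10.11 and 10.52 at 18 months and 9.57, 9.77 and 9.84 at 9 months. It moved the other way, by 0.35 (SE 0.13, adjusted p = 0.0411). That call was lost without any one of 8 tumours, 2 to 6 of 9 months and 3, 5 and 6 of 18 months (0.26 to 0.36, adjusted p up to 0.104), after a further quantile normalization, and without 18-month tumours 4 and 5 together (0.34, adjusted p = 0.0731). The endothelial marker mean was highest in the same tumours of 18 months as Plxnd1 and Nrp1, at 9.54 in tumour 4 and 9.32 in tumour 5, against 7.86 to 8.61 in the other 4. The follicular marker mean was highest in 18-month tumours 4 and 5 too, as given above. The part of either marker mean in these falls was not tested.

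Of 2 tested Slits and 3 tested Robos, Slit3 and Robo4 fell and nothing rose, where 22.4% of all genes were called lower. Slit3, a secreted Robo ligand, had 8.09, 8.91 and 9.03 at 18 months and 9.01, 9.18 and 9.44 at 9 months, a difference of -0.51 (SE 0.15, adjusted p = 0.00966). The groups overlapped in tumour 3 of 18 months alone. Robo4, the Robo of endothelial cells, had 6.42, 6.80 and 7.82 at 18 months and 7.51, 7.65 and 8.02 at 9 months. It differed by -0.72 (SE 0.22, adjusted p = 0.0139), with 18-month tumour 4, at 7.82, among the 9-month values. Slit1, Robo1 and Robo2 were low, with differences of 0.28 (SE 0.22, adjusted p = 0.331), 0.28 (SE 0.23, adjusted p = 0.352) and 0.33 (SE 0.21, adjusted p = 0.208), and did not pass. All 3 were highest in 18-month tumour 1, at 8.17, 8.15 and 7.93, against 6.80, 6.74 and 6.81 as the highest at 9 months. Robo3, next to Robo4 on chromosome 8, was below the test limit in every group at 5.29 to 5.71. The endothelial marker mean, which includes Robo4 itself, was highest in 18-month tumours 4 and 5, as given above. So was the follicular marker mean, at 10.92 and 10.63, against 7.28 to 9.43 in the other 4. The part of either in the fall of Robo4 was not tested.

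Of 3 tested netrins 1 fell, and of 3 tested netrin receptors 1 rose, where 22.4% of all genes were called lower and 21.6% higher. Ntn1, the netrin best known as an attractant of commissural axons, had 7.70, 8.20 and 9.86 at 18 months and 9.08, 9.47 and 10.11 at 9 months. The difference was -1.01 (SE 0.34, adjusted p = 0.024), with 2 of 6 tumours at 18 months, 4 and 5, within the 9-month range. The call was lost without any one of 5 tumours, 5 and 6 of 9 months and 1, 2 and 3 of 18 months (-0.93 to -0.84, adjusted p up to 0.0623). Unc5a, a repulsive netrin receptor, had 7.77, 8.22 and 9.05 at 18 months and 7.52, 7.61 and 7.85 at 9 months. It rose by 0.68 (SE 0.16, adjusted p = 0.00308), with 5 of 6 tumours at 18 months above every 9-month tumour. Unc5b, known in endothelium, differed by 0.23 (SE 0.15, adjusted p = 0.241) and Unc5c by -0.51 (SE 0.32, adjusted p = 0.206). Ntn3 and Ntn5 differed by 0.15 and -0.12 (adjusted p = 0.116 and 0.235), and Dcc, the attractive netrin receptor, was too dim to test at 5.78 to 6.45. The genes matched by name only gave -0.07 for Unc50 (adjusted p = 0.441), and Unc5cl was too dim to test.

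The ephrins fell in 3 of 6 tested genes and rose in 1. Efna4 had 7.18, 7.77 and 8.70 at 18 months and 8.89, 8.92 and 9.10 at 9 months. All tumours at 18 months were below all at 9 months, with a difference of -1.05 (SE 0.20, adjusted p = 0.000837). Efna2, dimmer, showed the same order of groups with a smaller difference of -0.20 (SE 0.07, adjusted p = 0.0254), a call lost without 9-month tumour 3 or 18-month tumour 1 or 2 (-0.19 to -0.17, adjusted p up to 0.0653). Efna4 has Efna1 as a near neighbour on chromosome 2, with 1 gene between, and Efna1 differed by -0.12 (SE 0.13, adjusted p = 0.506). Efna5 differed by -0.08 (SE 0.20, adjusted p = 0.776).

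The ephrin-B ligands, which span the membrane and can signal into the cell that bears them, went opposite ways. Efnb1 had 8.78, 9.42 and 9.82 at 18 months and 8.53, 8.71 and 8.82 at 9 months. It rose by 0.67 (SE 0.17, adjusted p = 0.00534), and tumour 4 of 18 months was the only one inside the 9-month range. Efnb2, known as a marker of arterial endothelium, had 7.33, 8.02 and 8.99 at 18 months and 8.96, 9.12 and 9.39 at 9 months. It fell to a mean of 8.13 at 18 months, against 9.14 at 9 months, a difference of -1.01 (SE 0.25, adjusted p = 0.00476), with tumour 5 of 18 months just within the 9-month range. Efnb3 was too dim to test.

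Of 9 tested Eph receptors 2 rose and 4 fell, and they held both the largest fall and the largest rise of the 48 genes. Epha7 had 6.55, 9.16 and 10.23 at 18 months and 10.61, 10.77 and 11.04 at 9 months. The 18-month tumours were all lower and spread widely (SD 1.39 at 18 months, 0.19 at 9 months, n = 6 each), and the difference was -1.84 (SE 0.45, adjusted p = 0.00381). Ephb2, known from axon guidance and the intestinal crypt of mice, had 8.08, 9.44 and 9.98 at 18 months and 7.46, 7.77 and 8.04 at 9 months. It was higher in every 18-month tumour, by 1.44 (SE 0.27, adjusted p = 0.000847), or 2.71-fold. Epha8 had 9.16, 9.88 and 10.11 at 18 months and 8.41, 8.55 and 8.91 at 9 months. These groups did not overlap either, and the difference was 1.18 (SE 0.21, adjusted p = 0.000763).

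Smaller falls were seen in Epha1, Epha2 and Ephb3, and each lost its call without some single tumours. Epha1 differed by -0.43 (SE 0.14, adjusted p = 0.0215), and without 9-month tumour 5 or 18-month tumour 1 or 2 the value was -0.38 to -0.37 (adjusted p up to 0.0552). Epha2 differed by -0.28 (SE 0.11, adjusted p = 0.0439) and lost its call without any one of 13 tumours: homozygous 1, 2, 4 and 5, which enter through the shared variance, all 6 of heterozygous rats at 9 months, and 1, 2 and 3 of 18 months (-0.29 to -0.21, adjusted p up to 0.112), as well as without the filter on dim genes and with only the 2 compared groups in the fit. Ephb3, which acts with Ephb2 in the crypt, differed by -0.35 (SE 0.12, adjusted p = 0.0293), opposite to Ephb2. Its call was lost with only the 2 compared groups in the fit and without 9-month tumour 2 or 18-month tumour 1, 2, 3 or 6 (-0.32 to -0.29, adjusted p up to 0.0754), and without tumours 4 and 5 of 18 months it was -0.56 (adjusted p = 2.32e-05). Epha3, Epha10 and Ephb6 differed by -0.59, -0.03 and 0.17 (adjusted p = 0.189, 0.746 and 0.162), and Epha5 and Ephb1 were too dim to test.

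Ephb2 and Epha8, the 2 Eph receptors that rose, lie close together on chromosome 5 with 3 protein-coding genes between them. Their promoters are printed for that reason, from RefSeq (GRCr8, minus strand, read 5′ to 3′) at chr5:154476917-154477216 for Epha8 and chr5:154360375-154360674 for Ephb2, with capitals for GC and CCAAT boxes as above.
Epha8: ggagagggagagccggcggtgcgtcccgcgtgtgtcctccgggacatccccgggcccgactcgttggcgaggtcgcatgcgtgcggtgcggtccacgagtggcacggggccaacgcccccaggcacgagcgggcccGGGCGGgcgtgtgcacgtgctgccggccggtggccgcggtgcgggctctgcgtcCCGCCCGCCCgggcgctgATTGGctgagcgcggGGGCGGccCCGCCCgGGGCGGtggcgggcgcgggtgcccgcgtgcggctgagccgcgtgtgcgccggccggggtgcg
Ephb2: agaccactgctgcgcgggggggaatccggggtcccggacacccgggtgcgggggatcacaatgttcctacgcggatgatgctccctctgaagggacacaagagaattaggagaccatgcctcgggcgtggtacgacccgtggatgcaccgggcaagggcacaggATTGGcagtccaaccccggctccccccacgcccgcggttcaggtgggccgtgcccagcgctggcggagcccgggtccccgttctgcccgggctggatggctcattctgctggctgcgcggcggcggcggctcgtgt
The Epha8 window was 81.0% G and C, with 51 CpG, 6 GC boxes (overlapping matches counted) and 1 CCAAT box. The Ephb2 window was 69.3% G and C, with 29 CpG, no GC box and 1 CCAAT box.

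Promoters of 47 of the 56 genes were found in RefSeq. GC boxes were in 24 of them (51.1%), against 34.9% of all 27457 promoters of the same length. Those 27457 were not limited to the 14506 genes measured here, so these shares do not set guidance genes against other measured genes. CCAAT boxes were in 15 (31.9%, against 37.7%), and the E-box CACGTG, which reads the same on both strands, in 4 (8.51%, against 6.65%). No guidance promoter held TATAAA or TTTATA, which were in 14.3% of all promoters. Median G and C content was 63.0%, against 52.3%. Among matched genes, GC boxes were in 6 of 10 that rose and 9 of 15 that fell, and CCAAT boxes in 5 of 10 that rose and 7 of 15 that fell. These are counts of letters in a window and not evidence of binding, and the shares were not tested.

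**Figure D3:**
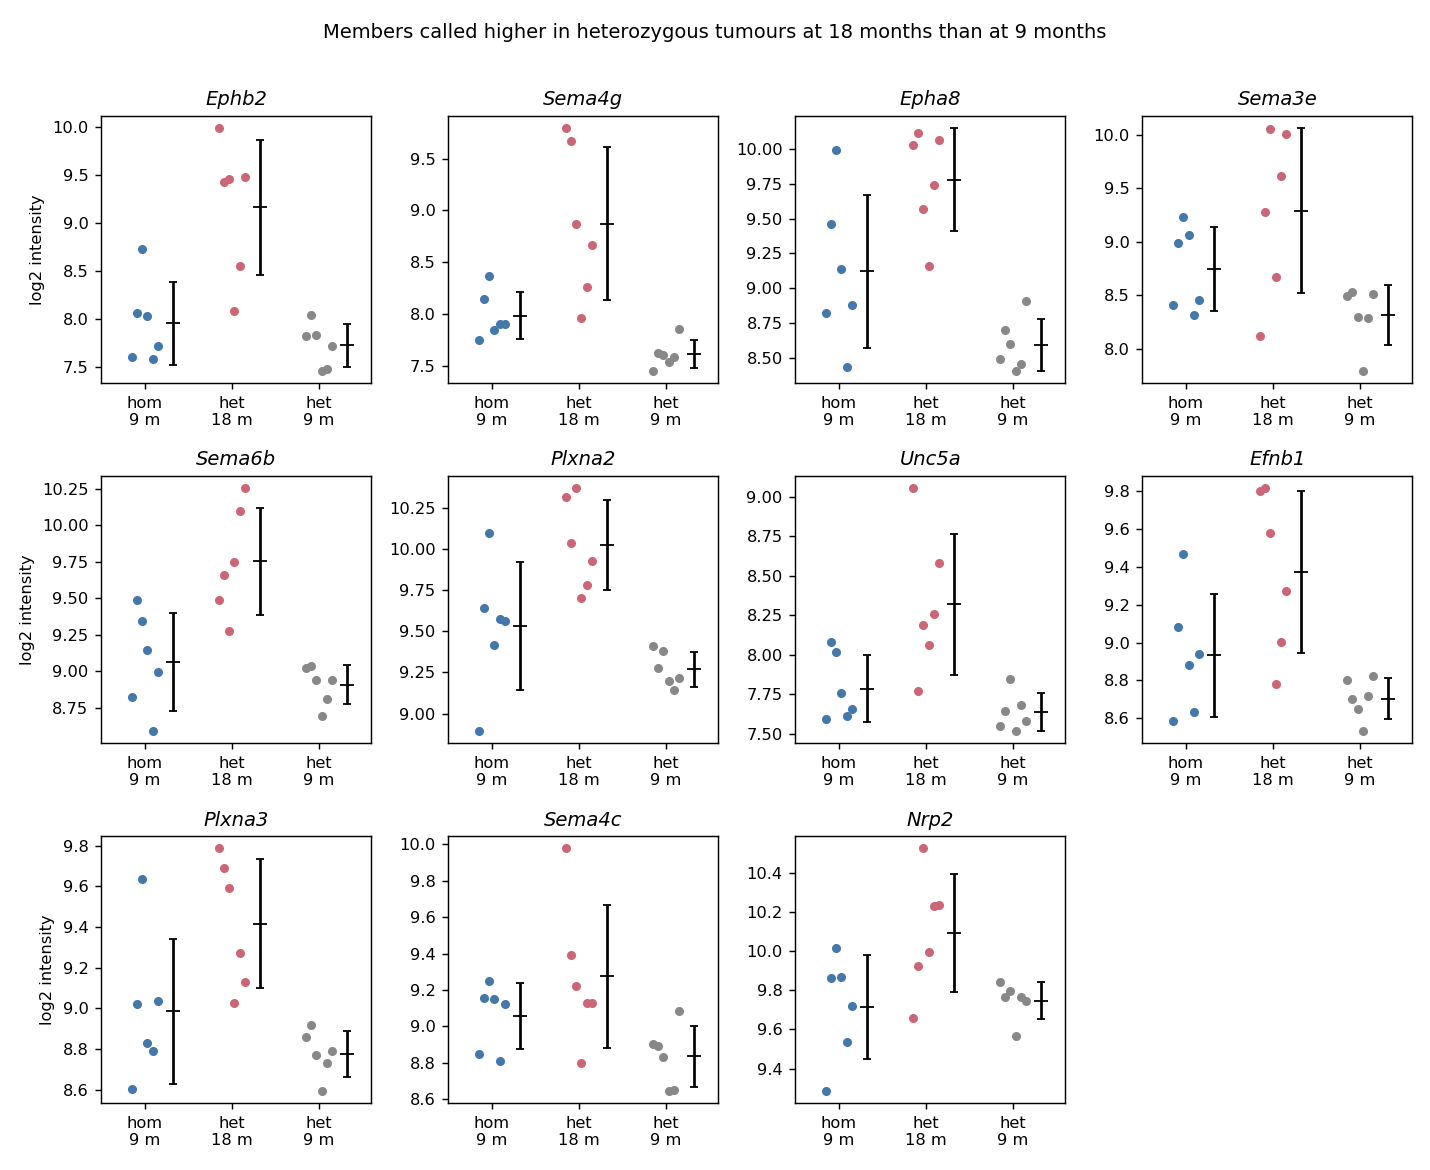
Log2 intensity of the 11 genes that rose, in every tumour, for homozygous tumours at 9 months, heterozygous tumours at 18 months and heterozygous tumours at 9 months; bars give the mean and SD of 6 tumours. In Ephb2, Sema4g, Epha8, Sema6b, Plxna2 and Plxna3 all heterozygous tumours at 18 months lay above all at 9 months.

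**Figure D4:**
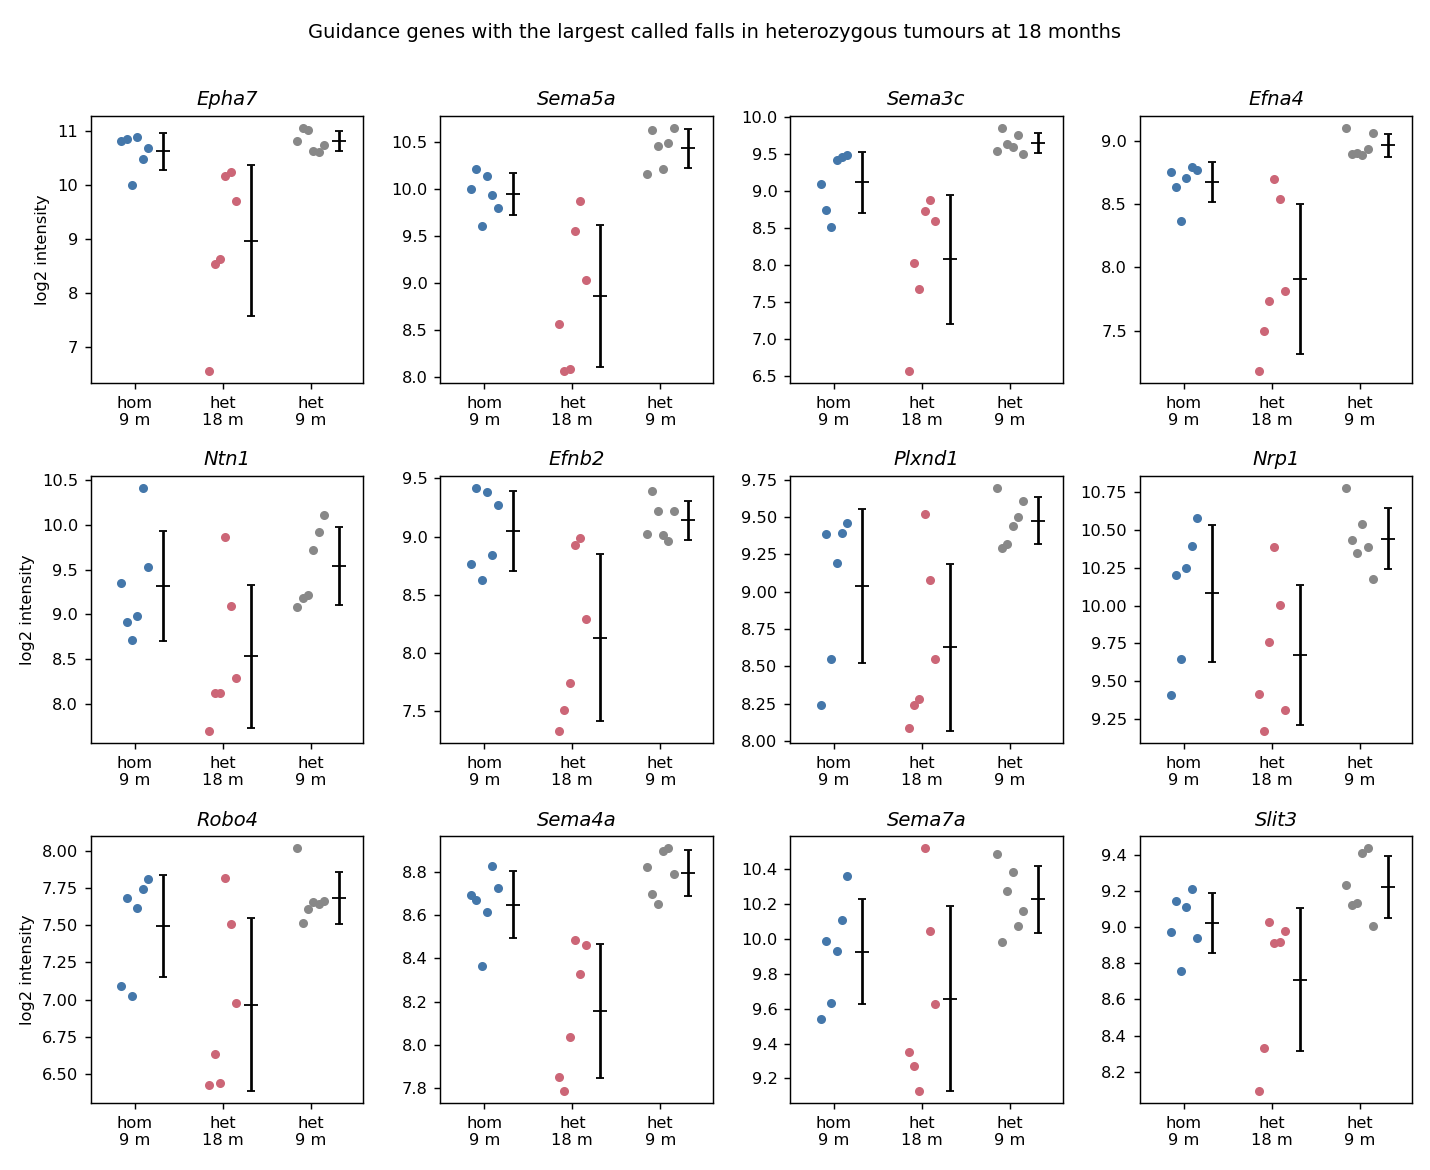
Log2 intensity of the 12 largest falls, in every tumour, for homozygous tumours at 9 months, heterozygous tumours at 18 months and heterozygous tumours at 9 months; bars give the mean and SD of 6 tumours. In Epha7, Sema5a, Sema3c, Efna4 and Sema4a all heterozygous tumours at 18 months lay below all at 9 months.

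The SD over 6 tumours was largest at 18 months in 42 of the 48 genes, in homozygous tumours in 5 and in heterozygous tumours at 9 months in 1. Its median was 0.41 at 18 months, 0.23 in homozygous tumours and 0.14 in heterozygous tumours at 9 months. In 18 of the 28 genes that changed, 5 rises and 13 falls, tumours 4 and 5 were the 18-month tumours nearest to the 9-month group. Homozygous tumour 3 lay furthest towards the 18-month side among homozygous tumours in 22 of the 28. In Epha8 it had 9.99, against 8.44 to 9.46 in the other homozygous tumours, and in Ephb2 8.72, against 7.58 to 8.06. These counts were not taken over all 11370 genes, whose first principal component set the same tumours apart. They are therefore not shown to be particular to guidance genes. Without 18-month tumours 4 and 5, 7 further genes passed: Epha3 at -1.07, Sema6d at -0.63, Sema3f at -0.53, Plxnb2 at -0.22, Ephb6 at 0.31, Sema6c at 0.27 and Ntn3 at 0.24. The choice of tumours left out favours such gains, as given above.

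**Figure D5:**
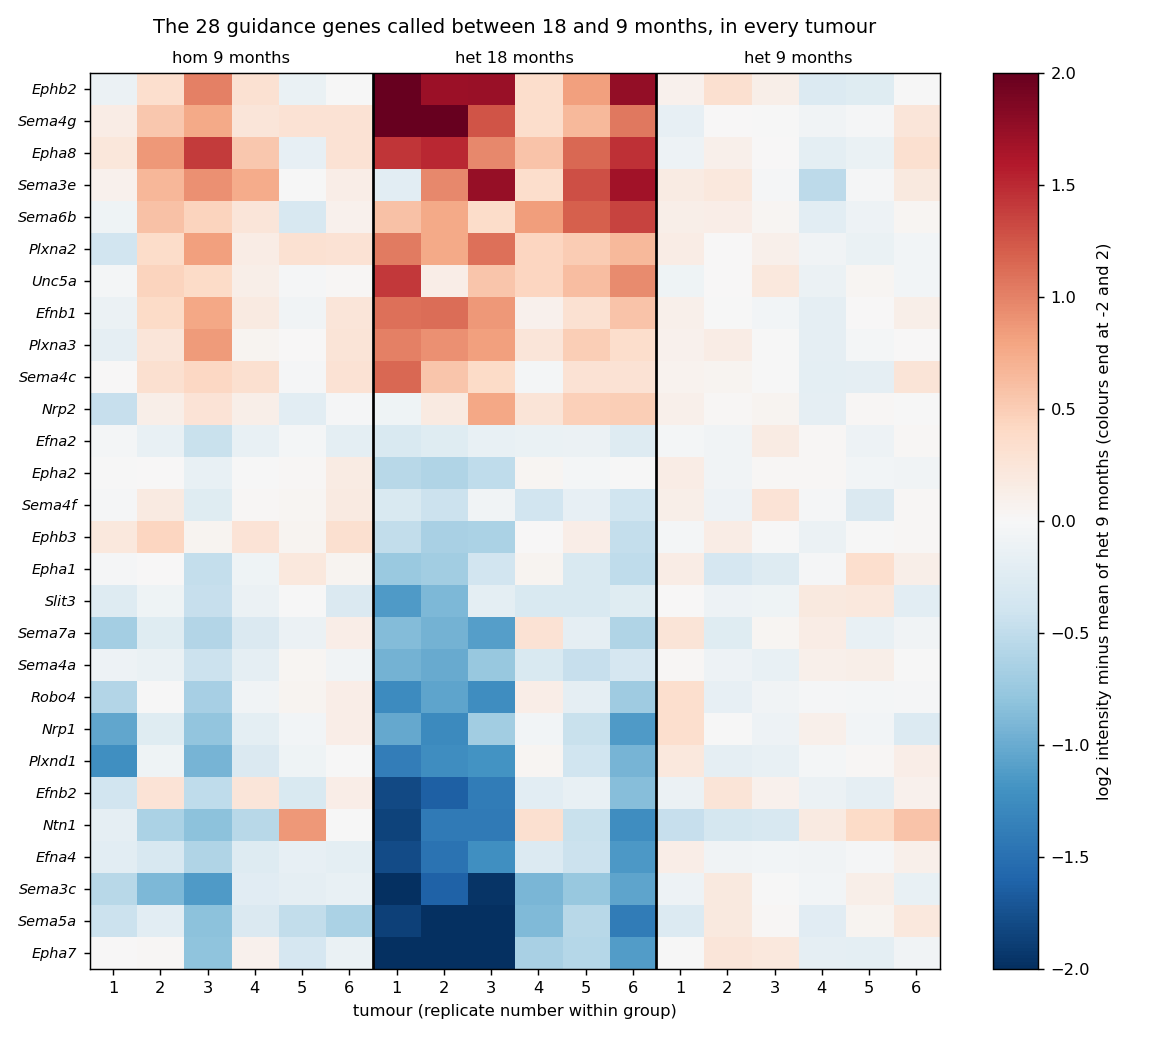
Log2 intensity minus the mean of heterozygous tumours at 9 months for the 28 genes that changed with age (down the page, rises above falls) in each of 18 tumours (across, by replicate number within group). Tumours 4 and 5 of 18 months carry paler colours than tumours 1, 2, 3 and 6 in most genes, and homozygous tumour 3 lies furthest of its group towards the 18-month side in 22.

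The other genes of the pathway, a list of 68 adaptors, further ligands and cytoskeletal effectors, gave 53 tested genes, of which 18 rose, 14 fell and 21 did not pass at 18 months. Of all genes tested, 44.1% were called, 21.6% higher and 22.4% lower. The median difference of the 53 genes was 0.05. The smallest adjusted p belonged to Flrt1, a membrane protein of a family that binds Unc5 receptors, at a mean of 9.32 at 18 months and 7.99 at 9 months, higher by 1.33 (SE 0.14, adjusted p = 0.000167). Limk1, a kinase that inactivates the actin-severing protein cofilin, was higher by 0.86 (SE 0.13, adjusted p = 0.00037). Enah, an actin regulator of the growth cone, and Cntn2, an axonal adhesion molecule, were higher by 0.65 (SE 0.11, adjusted p = 0.000494) and 0.81 (SE 0.14, adjusted p = 0.000703). Of the 5 collapsin response mediators, which relay semaphorin signals and were chosen here after their values were seen, Dpysl5, Crmp1 and Dpysl4 rose by 2.09, 1.71 and 0.98 (adjusted p = 0.00103, 0.00103 and 0.00112). Dpysl2 fell by 0.25 on the log2 scale (adjusted p = 0.00797), and Dpysl3 differed by 0.03 (adjusted p = 0.82). Rhoa, the small GTPase that drives growth cone collapse, also chosen so, had 13.26 at 18 months and 13.52 at 9 months, a difference of -0.26 (SE 0.06, adjusted p = 0.00244).

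The second comparison set homozygous against heterozygous tumours at the same age of 9 months. None of the 48 guidance genes passed in limma, and neither did any of the 11370 genes (0.0%). At an unadjusted p under 0.05 there were 3 guidance genes, Efna1, Efna2 and Epha8, where 8.75% of all genes reached it. Efna1, known as a ligand of Epha2, had 9.63, 10.19 and 10.49 in homozygous and 9.62, 9.79 and 10.00 in heterozygous tumours, which overlapped. The difference was 0.35 (SE 0.13, adjusted p = 0.503), with a 95% interval of 0.06 to 0.63, and limma's array weights brought it to 0.46 (adjusted p = 0.0332). Epha8 had 8.44, 9.01 and 9.99 in homozygous and 8.41, 8.55 and 8.91 in heterozygous tumours, also overlapping, and differed by 0.53 (SE 0.21, adjusted p = 0.513). Ephb3, next by p among the higher values, differed by 0.22 (SE 0.12, adjusted p = 0.597).

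Among lower values, Efna2 differed by -0.17 (SE 0.07, adjusted p = 0.503), Sema5a by -0.48 (SE 0.26, adjusted p = 0.591) and Epha10, an Eph receptor without kinase activity, by -0.13 (SE 0.06, adjusted p = 0.569). Sema5a had 9.61, 9.97 and 10.22 in homozygous and 10.16, 10.47 and 10.65 in heterozygous tumours. Those ranges overlapped in 1 homozygous tumour. In 2 genes the groups were apart without passing the test: every homozygous tumour was below every heterozygous one in Sema3c, with a difference of -0.52 (SE 0.30, adjusted p = 0.614), and in Efna4, with -0.29 (SE 0.20, adjusted p = 0.656). Of all genes 1.57% had groups apart, 0.915% on the lower side. Sema3c had 8.51, 9.25 and 9.49 in homozygous and 9.49, 9.61 and 9.84 in heterozygous tumours. Efna4 had 8.37, 8.73 and 8.79 in homozygous and 8.89, 8.92 and 9.10 in heterozygous tumours. The SEs of both genes use 1 variance over all 3 groups, including the 18-month tumours, which are not compared here. At 18 months the SD was 0.87 in Sema3c and 0.59 in Efna4. In homozygous and heterozygous tumours at 9 months it was 0.41 and 0.13 in Sema3c, and 0.16 and 0.09 in Efna4.

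The intervals carry the same shared variance and show what this fit left undecided. With only the 2 compared groups in the fit, 24 of all genes were called, and 0 guidance genes were higher or lower. Over the 48 genes the 95% intervals reached from -1.16 to 1.02, so the intervals of some genes still hold differences of that size. In the families without a gene described above, the smallest p belonged to Plxnd1 at -0.44, Nrp1 at -0.36, Slit3 at -0.20, Robo4 at -0.19, Ntn5 at -0.07, Unc5b at 0.19 and Efnb1 at 0.23, with adjusted p of 0.601 to 0.807. None of the 53 other pathway genes passed either, with a median of 0.07. Endothelial marker means were 8.83 to 9.70 in homozygous and 9.50 to 9.75 in heterozygous tumours, with 0 of 18 genes called.

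The third comparison set homozygous tumours at 9 months against heterozygous tumours at 18 months, so genotype and age cannot be told apart in it, and it shares tumours with both others. Of the 48 genes 9 were higher and 8 lower in homozygous tumours (35.4%), where 29.8% of all genes were called, 16.2% higher and 13.6% lower. In no guidance gene were the groups apart, against 2.25% of all genes, 1.26% higher and 0.994% lower. Markers moved here too: 7 of 10 follicular and 9 of 18 endothelial markers were higher in homozygous tumours, and of 15 C cell markers 2 were higher and 8 lower. Their part in the calls was not tested. With only the compared groups in the fit, which leaves heterozygous tumours at 9 months out of the variance, 2 were higher and 1 lower, and 14 of 17 lost their call. Without 18-month tumours 4 and 5 there were 21 higher and 11 lower. Without tumour 4 alone 17 were higher, and without homozygous tumour 1, 4, 5 or 6 or 18-month tumour 2 or 3 only 4 or 5 were lower. The genes called among all 11370 moved likewise. They were 3392 with all tumours, 708 with only the compared groups, 5392 without tumours 4 and 5 and 4702 without tumour 4. In the fits with 4 or 5 lower they were 2116 to 2835.

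Epha7 had 10.00, 10.74 and 10.88 in homozygous tumours at 9 months and 6.55, 9.16 and 10.23 in heterozygous tumours at 18 months, a difference of 1.65 (SE 0.45, adjusted p = 0.0147). Sema5a differed by 1.09 (SE 0.26, adjusted p = 0.00942), Sema3c by 1.04 (SE 0.30, adjusted p = 0.0188) and Efnb2 by 0.92 (SE 0.25, adjusted p = 0.0156). The other higher genes were Efna4 at 0.76, Ephb3 at 0.57, Sema4a at 0.49, Efna1 at 0.47 and Sema4f at 0.32. Ephb2 had 7.58, 7.87 and 8.72 in homozygous tumours at 9 months and 8.08, 9.44 and 9.98 in heterozygous tumours at 18 months, a difference of -1.21 (SE 0.27, adjusted p = 0.00806). Sema4g differed by -0.89 (SE 0.25, adjusted p = 0.0156), Sema6b by -0.69 (SE 0.16, adjusted p = 0.00961) and Unc5a by -0.53 (SE 0.16, adjusted p = 0.0212). Epha8, Plxna2, Plxna3 and Nrp2 differed by -0.66, -0.49, -0.43 and -0.38 (adjusted p = 0.0301, 0.0255, 0.0453 and 0.039). Each of these 4 lost its call without single tumours, 7 for Epha8, 5 for Plxna2, 14 for Plxna3 and 6 for Nrp2, with adjusted p up to 0.109. Of the families without a call, Robo4 differed by 0.53 (SE 0.22, adjusted p = 0.0755), Ntn1 by 0.79 (SE 0.34, adjusted p = 0.0898) and Slit3 by 0.31 (SE 0.15, adjusted p = 0.116). Set beside the age comparison, Epha7 differed there by -1.84 and Ephb2 by 1.44, both against heterozygous tumours at 9 months. Other pathway genes gave 10 higher and 14 lower of 53, where 29.8% of all genes were called, 16.2% higher and 13.6% lower.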

How the data were processed

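Medullary thyroid carcinomas of 18 rats were measured on Affymetrix arrays, with 6 per group, and the groups were read from the labels. The deposited values are on the log2 scale. Per the submitters' processing notes, the authors worked with Affymetrix Expression Console 1.3.0.187 and RMA, in an order not given in the sources used here. Array medians lay between 7.55 and 7.65 and array correlations between 0.935 and 0.995. Precision is limited by the number of arrays, which carry no depth. The genome build and array dates are not given in the sources used here. Of the value columns, 0 lacked a sample.

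Of 29214 probe sets, 15310 had 1 gene symbol in the platform annotation, 323 several and 13581 none. The probe set with the highest mean stood for a gene, and Sema4c alone among the guidance genes had more than 1. Symbols of 55 of the 56 genes were found by gene ID in RefSeq (GRCr8). Genes whose mean reached the 30th percentile of probe sets (6.32) were tested, 11370 in all, of which 48 were guidance genes.

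With limma 3.58.1 (R 4.3.3, statmod 1.5.0), lmFit and eBayes gave 1 mean per group over all arrays, with two-sided p-values adjusted by Benjamini-Hochberg over all genes tested. SEs and intervals are those of limma. The p-values measure the spread between animals, one tumour each by its code. The procedure was also run on simulated data, with values drawn separately for each gene. That simulation lacked the split of the 18-month tumours shared by many genes, so it cannot show how calls behave under it. Genes described in full were up to 12 rises and 12 falls with the largest difference, or the 3 with the smallest p each way where none passed, the gene with the smallest p in a family without a call, and up to 4 genes with the smallest p of the other pathway genes. The guidance genes, the gene lists and the tests were chosen with earlier results of these data known. Deviations from the group mean in same-numbered tumours of different groups had correlations from -0.288 to 0.353. Differently numbered tumours were not compared, so these values cannot show whether the numbers mark pairs. The labels name no pairs, and the main fit used none. Alternatives were the replicate block, no filter or one at the 50th percentile, only the compared groups, array weights, eBayes with trend and robust settings, median centring, quantile normalization, the mean of a gene's probe sets, each array left out and, added later, 18-month tumours 4 and 5 left out. Promoters were those of 300 bases in the RefSeq table.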

Additional observations from a re-analysis of the deposited data

Results flagged for a closer look

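In 7 of 144 sets of 6 tumours (48 genes in 3 groups) 1 tumour lay far from the others by Dixon's criterion, a number that chance alone gives at about 1 set in 20. The 2 highest gaps were both in 18-month tumour 1: Slit1 at 8.167, against 6.506 to 6.785 in the other 5, and Robo2 at 7.935, against 6.475 to 6.893. Homozygous tumour 5 had Sema6d at 9.635, against 8.545 to 8.913, and homozygous tumour 3 had Efna4 at 8.369, against 8.635 to 8.793. In heterozygous tumours at 9 months, tumour 4 was low in Nrp2 (9.568, against 9.743 to 9.841) and in Sema3e (7.792, against 8.288 to 8.528), and tumour 1 was high in Robo4 (8.016, against 7.512 to 7.666).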

How the results depend on the processing

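Alternatives were recomputed for the 28 genes called with age, 6 genes of the genotype comparison and the 17 called in the third, and none of these differences turned its sign. With age, 20 of the 28 calls held under every alternative in which the gene was tested (Robo4, one of them, and Efna2 were too dim for the filter at the 50th percentile). The other 8 were lost under at least 1: Efna2, Epha1, Epha2, Ephb3, Nrp2, Ntn1, Sema4c and Sema7a. With single tumours left out, 9 to 13 guidance genes were higher and 11 to 20 lower at 18 months, among 4290 to 5740 genes called. With the replicate number as a block, 12 were higher and 16 lower among 4866 genes called, Efna2 lost its call (adjusted p = 0.0579), and genotype gave 0 genes. In the third comparison the replicate block gave 11 higher and 9 lower of 3433 genes. Between genotypes the number of genes called was 24 with only the compared groups, 118 with array weights (1 guidance gene, Efna1, higher), 7 without 18-month tumours 4 and 5 and 0 to 2 with single tumours left out. The third comparison moved most. It called 708 genes with only the compared groups (2 guidance genes higher, 1 lower) and 5392 without tumours 4 and 5 (21 higher, 11 lower). With single tumours left out it called 2116 to 4702 (9 to 17 higher, 4 to 10 lower), and with array weights 5078 (18 higher, 12 lower). Only 3 of its 17 calls held throughout. The causes were not tested, except that fewer tumours enter some fits. Scaling moved the median of all genes by at most 0.03.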
